A study of Mus musculus with 9 samples.

Results

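The transcripts examined here code for 10 regulators of mitochondrial and fatty acid metabolism: the coactivators Ppargc1a and Ppargc1b, the receptors Ppara, Ppard and Pparg, the receptors Esrra, Esrrb and Esrrg, the receptor partner Rxrg, and the mitochondrial DNA factor Tfam. They were taken by gene symbol from a table of read counts for 24537 gene symbols in 35745 transcript rows, where the 10 genes hold 19 rows. RNA sequencing was done on mice named C57Bl6 in the series' design text and male C57Bl/6JCrl in the study's methods, in a study of muscle wasting in heart failure. All animals had surgery at 8 weeks of age by the design text, or at 8 to 10 weeks by the study's methods, and tissue was taken 12 weeks later. The groups compared here are 3 heart and 3 quadriceps libraries of sham-operated mice, so both groups share the sham surgery, which leaves the aorta unconstricted. A further 3 quadriceps libraries came from mice with transverse aortic constriction (TAC), in which the aorta is tied around a needle so that the left ventricle pumps against a high pressure. These were not analysed here, since their table of secreted-protein genes lists none of the 10 regulators. The labels name no individual mouse, so the p-values measure the spread between these libraries, which may be partly technical. Whole tissue was sequenced, and in such samples fewer cells of a type and less RNA per cell cannot be told apart.

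The peroxisome proliferator-activated receptors (PPARs) are nuclear receptors that fatty acids and their derivatives activate. They bind DNA as pairs with a retinoid X receptor (RXR) and control genes of fatty acid uptake and oxidation. The estrogen-related receptors (ERRs) are orphan nuclear receptors that need no hormone and bind near genes of the citric acid cycle and of oxidative phosphorylation. PGC-1 proteins bind no DNA themselves but dock on PPARs, ERRs and the nuclear respiratory factors and raise their activity. Tfam, a target of that circuit, packs mitochondrial DNA and starts its transcription. Heart and red skeletal muscle are known for high activity of this system, whereas the quadriceps of the mouse consists largely of fast glycolytic fibres.

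The 250 bases before the annotated start are shown for 2 regulators that were lower in quadriceps than in heart (Ppargc1a, Ppara) and 3 that were higher with the main scaling (Esrra, Tfam, Rxrg), to set the start regions beside the levels below. They come from RefSeq on GRCm38.p6, read 5′ to 3′ on the strand of the gene: chr5:51567726-51567975 (minus) for Ppargc1a, chr15:85735526-85735775 (plus) for Ppara, chr19:6921809-6922058 (minus) for Esrra, chr10:71238045-71238294 (minus) for Tfam, and chr1:167618015-167618264 (plus) for the second annotated start of Rxrg. Capitals mark the letters AGGTCA, the core that nuclear receptors of the PPAR, RXR and ERR type bind.
Ppargc1a: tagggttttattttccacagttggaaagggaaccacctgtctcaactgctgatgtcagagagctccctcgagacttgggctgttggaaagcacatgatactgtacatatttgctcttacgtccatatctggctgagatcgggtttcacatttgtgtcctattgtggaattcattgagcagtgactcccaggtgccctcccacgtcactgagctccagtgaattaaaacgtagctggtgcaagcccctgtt
Ppara: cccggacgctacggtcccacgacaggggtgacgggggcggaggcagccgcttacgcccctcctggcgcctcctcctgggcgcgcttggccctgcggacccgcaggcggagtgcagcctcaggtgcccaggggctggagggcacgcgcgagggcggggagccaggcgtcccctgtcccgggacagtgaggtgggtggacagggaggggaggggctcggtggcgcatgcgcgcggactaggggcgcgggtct
Esrra: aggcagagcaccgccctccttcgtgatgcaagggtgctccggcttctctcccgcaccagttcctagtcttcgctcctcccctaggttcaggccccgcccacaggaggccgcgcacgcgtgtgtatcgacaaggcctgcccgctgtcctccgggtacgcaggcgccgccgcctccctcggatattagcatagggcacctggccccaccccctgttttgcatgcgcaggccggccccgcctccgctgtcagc
Tfam: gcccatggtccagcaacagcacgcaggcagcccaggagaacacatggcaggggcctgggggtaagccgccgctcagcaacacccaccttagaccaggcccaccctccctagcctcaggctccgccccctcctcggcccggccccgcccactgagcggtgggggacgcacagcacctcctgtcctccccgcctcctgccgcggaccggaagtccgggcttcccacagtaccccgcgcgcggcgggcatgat
Rxrg: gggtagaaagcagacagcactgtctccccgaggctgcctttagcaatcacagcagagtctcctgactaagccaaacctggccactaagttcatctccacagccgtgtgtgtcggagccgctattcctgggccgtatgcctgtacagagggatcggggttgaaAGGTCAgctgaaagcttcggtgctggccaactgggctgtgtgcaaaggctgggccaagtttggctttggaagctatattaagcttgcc

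The start regions differed in base composition. In the 250 bases shown, G and C made up 48.0% for Ppargc1a, with 5 CpG dinucleotides, against 76.4% and 27 CpG for Ppara. Esrra had 68.4% and 22 CpG, Tfam 72% and 19 CpG, and the second Rxrg start 55.2% and 7 CpG. Over 32851 annotated starts the medians were 52.4% and 6 CpG, so that Ppargc1a lay below both medians while Ppara, Esrra and Tfam lay above. Among 16 start regions of 9 of the regulators, each 300 bases long (250 before the start and 50 after), AGGTCA was found on either strand in 3, namely 1 of Rxrg and 2 of Pparg. In Rxrg it lies at bases -88 to -83 from the second annotated start, while the region of the first start, not shown, has no match. In the Pparg regions it lies at -28 to -23 and at -9 to -4. The same letters occur in 16.3% of all 32851 regions of that length. The ERR response element TCAAGGTCA, which contains AGGTCA, was in none of the 16 and in 0.423% of all regions. The PPAR-RXR direct repeat AGGTCANAGGTCA was in none of the 16 and in 0.0396% of all. These are matches of letters and no measure of binding.

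Levels are given as CPM (counts per 1000000 counts of a library) after TMM scaling, which sets library sizes from the trimmed mean of the log ratios between libraries, and a fold change is quadriceps over heart. Of the 10 regulators, 4 were lower in quadriceps at an adjusted p under 0.05 in edgeR's quasi-likelihood test (Ppargc1a, Ppargc1b, Ppara and Esrrb), where 34.4% of all 24280 tested transcripts were lower. Another 3 were higher (Esrra, Rxrg and Tfam), where 32.2% of all were higher. Ppard, Pparg and Esrrg did not pass the threshold. By at least 2-fold, 3 were lower (Ppargc1b, Ppara and Esrrb) against 20.5% of all transcripts, and 0 were higher against 16% of all. These shares are near the background, so the number of changed genes does not set the regulators apart from other transcripts. All 10 regulators passed the filter on low counts. Library totals ran from 33102826 to 38382751 counts in heart and from 23383452 to 32989108 in quadriceps, and over 10641 genes the median coefficient of variation was 6.03% in heart and 13.5% in quadriceps.

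**Figure D1:**
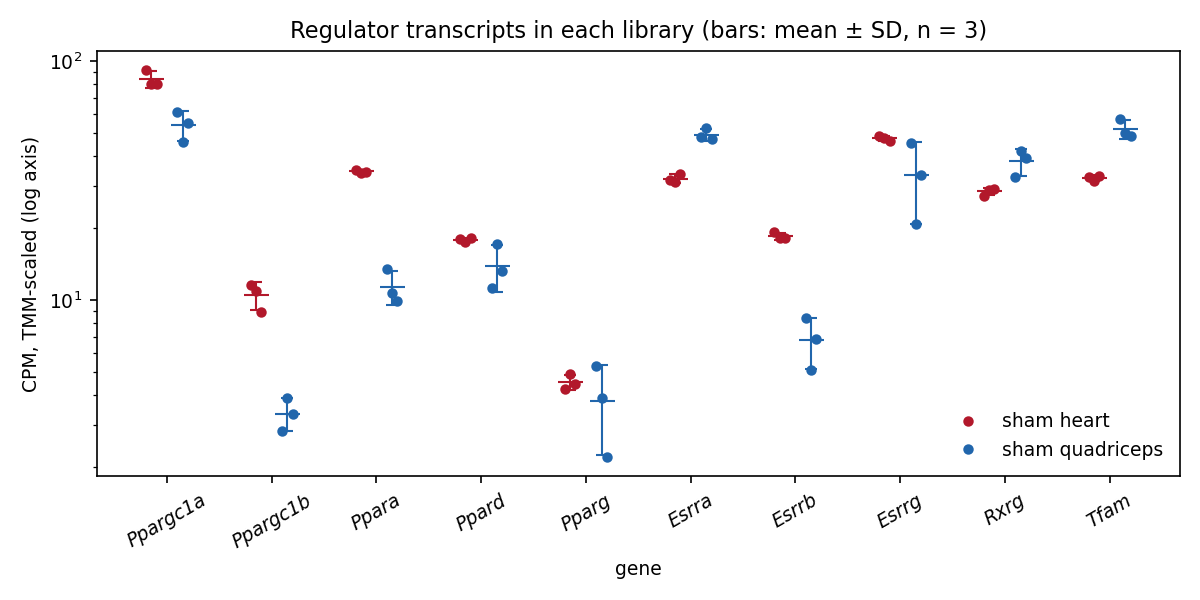
Points show the TMM-scaled CPM (log axis) of each regulator in the 3 sham heart and 3 sham quadriceps libraries, and the bars show mean ± SD. Ppargc1a, Ppargc1b, Ppara and Esrrb lie lower in every quadriceps library, Esrra, Rxrg and Tfam lie higher with this scaling, and Pparg and Esrrg spread most widely in quadriceps.

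The PGC-1 coactivators were both lower in quadriceps, Ppargc1b by more than Ppargc1a. Ppargc1a (chromosome 5, 51454250 to 51567726, minus strand, GRCm38) codes for PGC-1α, the coactivator that exercise and cold induce. Its leading row, the non-coding RefSeq variant NR_027710, had 91.5, 79.8 and 79.9 CPM in heart 1, 2 and 3 and 60.8, 45.9 and 55.2 CPM in quadriceps 1, 2 and 3. The highest quadriceps library lay below the lowest heart library. Mean levels were 83.7 ± 6.70 and 54.0 ± 7.53 CPM (SD, n = 3 each), a difference of -0.63 on the log2 scale (SE 0.12, edgeR adjusted p = 0.00151), or 1.55-fold lower in quadriceps. The coding variant NM_008904 shares nearly all of these reads, with 5 counts fewer over the 6 libraries, and the 3 rows of the gene gave log2 differences of -0.63 to -0.62.

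Ppargc1b (chromosome 18, 61298136 to 61400431, minus strand) codes for PGC-1β, a relative that sustains basal mitochondrial gene expression. It had 11.5, 10.95 and 8.92 CPM in heart and 2.83, 3.89 and 3.33 CPM in quadriceps, from 383 to 551 counts per heart library and 59 to 93 per quadriceps library. All quadriceps values were under those of heart, and the groups did not come close to each other. The log2 difference was -1.65 (SE 0.16, edgeR adjusted p = 1.48e-05), a 3.13-fold lower level from means of 10.5 ± 1.38 and 3.35 ± 0.528 CPM (SD, n = 3 each).

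Among the PPARs, Ppara was lower in quadriceps. The differences of Ppard and Pparg did not pass the test in the main fit with TMM scaling but did with library totals. Ppara (chromosome 15, 85734983 to 85802819, plus strand), the receptor that drives fatty acid oxidation in heart and liver, had 34.9, 34.1 and 34.3 CPM in heart. In quadriceps it had 13.4, 10.7 and 9.89 CPM. The heart libraries were nearly alike, with a coefficient of variation of 1.26%, the smallest of the 10 regulators, and every quadriceps library was far below them. The level was 3.02-fold lower in quadriceps, with a log2 difference of -1.60 (SE 0.13, edgeR adjusted p = 3.90e-06) from means of 34.5 ± 0.434 and 11.4 ± 1.84 CPM (SD, n = 3 each).

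Ppard (chromosome 17, 28232700 to 28301474, plus strand), the PPAR tied to oxidative programmes of skeletal muscle, had 17.9, 17.4 and 18.2 CPM in heart and 11.2, 17.2 and 13.2 CPM in quadriceps. The groups did not overlap, but quadriceps 2 lay just under the lowest heart library. The log2 difference was -0.37 (SE 0.15, edgeR adjusted p = 0.0540). It was -0.56 without quadriceps 2 (edgeR adjusted p = 0.00153) and -0.19 without quadriceps 1 (edgeR adjusted p = 0.202). The call also turned with the processing: with library totals the difference was -1.13 (edgeR adjusted p = 6.35e-05), and other filters or a replicate block brought it past the threshold too. Pparg (chromosome 6, 115360951 to 115490399, plus strand) is the master regulator of fat cell formation. It had 4.26, 4.89 and 4.45 CPM in heart and 5.29, 3.89 and 2.20 CPM in quadriceps. These were the lowest CPM of the PPARs, without division by transcript length. Quadriceps 1 was above all heart libraries and the other two were below them, so the groups overlapped. Its log2 difference was -0.23 (SE 0.25, edgeR adjusted p = 0.439), 0.04 without quadriceps 3 (adjusted p = 0.834 in edgeR) and -0.51 without quadriceps 1 (adjusted p = 0.0724 in edgeR). With library totals it was -0.96 (edgeR adjusted p = 0.0146). The 4 rows of Pparg share most of their reads and gave differences from -0.23 to -0.11.

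The ERRs moved apart: Esrrb was lower in quadriceps, and Esrra was higher with TMM scaling but not with library totals. Esrrg passed the test with library totals but not in the main fit with TMM. Esrra (chromosome 19, 6910977 to 6921813, minus strand) codes for ERRα, the main partner of PGC-1α on mitochondrial genes. Its level was 31.8, 31.0 and 33.7 CPM in heart and 48.0, 52.3 and 47.0 CPM in quadriceps. Each quadriceps library was above each heart library, and the quadriceps coefficient of variation of 5.75% was the smallest of the 10. The log2 difference was 0.61 (SE 0.09, edgeR adjusted p = 0.000338) with TMM scaling and -0.14 (edgeR adjusted p = 0.183) with library totals. Exons of Esrra overlap those of Trmt112 on the opposite strand and of Mir6990 on the same strand, and the sources used here do not say whether counting used strand, so reads of these genes may not be separable.

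Esrrb (chromosome 12, 86361117 to 86521628, plus strand) codes for ERRβ, known for its part in pluripotent cells and the inner ear. It had 19.2, 18.2 and 18.1 CPM in heart and 8.38, 5.10 and 6.89 CPM in quadriceps, with no overlap of the groups. The level was 2.72-fold lower in quadriceps, with a log2 difference of -1.44 (SE 0.16, edgeR adjusted p = 4.08e-05). Esrrg (chromosome 1, 187608791 to 188214885, plus strand) codes for ERRγ, abundant in oxidative muscle and needed for the metabolic switch of the newborn heart. Heart libraries had 48.5, 47.6 and 46.3 CPM, and quadriceps libraries had 45.5, 20.7 and 33.3 CPM. Quadriceps 1 almost reached the heart level whereas quadriceps 2 was far below it. The log2 difference was -0.51 (SE 0.23, edgeR adjusted p = 0.0726), -0.80 without quadriceps 1 (adjusted p = 0.00249 in edgeR) and -0.26 without quadriceps 2 (adjusted p = 0.109 in edgeR). With library totals it was -1.24 (edgeR adjusted p = 0.00407), and DESeq2 gave -0.50 (adjusted p = 0.0455). Esrrg also passed with TMM under no filter beyond 1 count (-0.55, edgeR adjusted p = 0.0433) and with a replicate block (-0.58, edgeR adjusted p = 0.0179).

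Rxrg and Tfam were both higher in quadriceps with TMM scaling, but with library totals Rxrg was lower and Tfam did not pass the test. Rxrg (chromosome 1, 167598384 to 167639623, plus strand) codes for RXRγ, the RXR form enriched in skeletal muscle. Its second annotated start carries AGGTCA in the sequence above and its first does not. Heart libraries had 27.3, 28.9 and 29.2 CPM, and quadriceps libraries had 32.5, 42.1 and 39.3 CPM. The groups did not overlap. The log2 difference was 0.42 (SE 0.12, edgeR adjusted p = 0.0100) with TMM and -0.34 (edgeR adjusted p = 0.00902) with library totals, so the direction depended on the scaling. The second row of the gene gave 0.54 with TMM.

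Tfam (chromosome 10, 71225464 to 71238280, minus strand) had 32.7, 31.3 and 33.1 CPM in heart and 57.1, 49.8 and 48.3 CPM in quadriceps. All quadriceps libraries were above all heart libraries, with means of 32.4 ± 0.942 and 51.7 ± 4.68 CPM (SD, n = 3 each). The log2 difference was 0.68 (SE 0.10, edgeR adjusted p = 0.000264) with TMM and -0.07 (edgeR adjusted p = 0.626) with library totals.

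In TMM-scaled CPM the groups did not overlap for 9 of the 10 regulators, Pparg being the exception, against 72.6% of all tested transcripts. With library totals the exception was Tfam instead, and the groups of Pparg did not overlap. The scaling set the level of every comparison. The median log2 difference of all tested transcripts was -0.06 with TMM and -0.80 with library totals, a shift of -0.75, and the 10 most abundant rows took 11.5 to 12.0% of the counts in heart and 15.6 to 18.5% in quadriceps. With library totals 8 regulators were lower, where 62.6% of all transcripts were lower, and 0 were higher, where 13.3% were higher. Esrra and Tfam were the regulators not called with totals. A change of scaling moves all transcripts by nearly the same amount, so distances from the median are kept by construction and are given only to place the regulators. Tfam lay 0.73 above that median with TMM and 0.74 above it with totals, Esrra 0.67 and 0.66, and Rxrg 0.47 and 0.46. Ppargc1a lay at -0.58 and -0.57, Ppara at -1.54 and -1.53, Esrrb at -1.39 and -1.38, and Ppargc1b at -1.59 and -1.60.

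**Figure D2:**
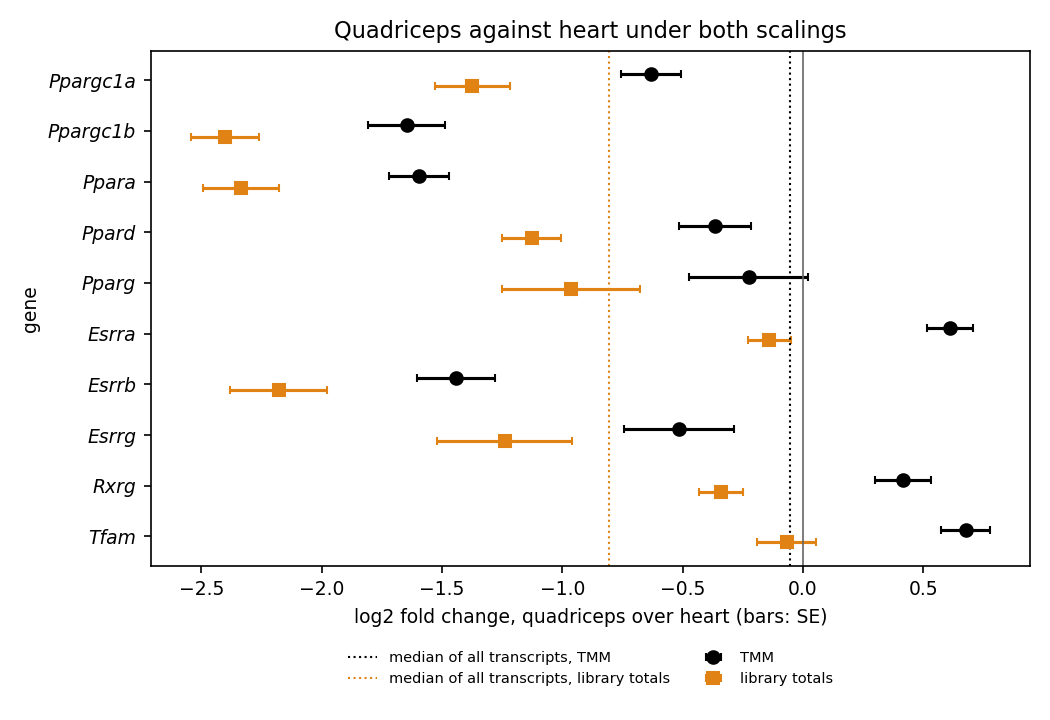
Points show each regulator's log2 fold change, quadriceps over heart, with TMM scaling (black circles) and with library totals (orange squares), with SE bars and dotted lines at the median of all transcripts. The change of scaling moves all points by nearly the same amount, and Esrra, Rxrg and Tfam pass from above 0 with TMM to below 0 with totals.

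To compare levels between genes, counts were divided by transcript length (RPKM with TMM scaling). Rxrg was the most abundant regulator in heart at 17.1 ± 0.616 RPKM (SD, n = 3), followed by Esrra at 14.4 ± 0.611 and Ppargc1a at 12.9 ± 1.03. The ranges of Esrra and Ppargc1a overlapped. Below them came Esrrg at 8.88, Tfam at 8.29, Ppard at 5.56, Ppara at 4.63, Esrrb at 4.32, Ppargc1b at 2.88 and Pparg at 2.14 RPKM, each with a range apart from its neighbours. In quadriceps Rxrg (22.8 ± 2.96 RPKM) and Esrra (22.0 ± 1.27) led with overlapping ranges, and Tfam came 3rd at 13.2 ± 1.20. Ppargc1a (8.32), Esrrg (6.21) and Ppard (4.32) followed, with overlaps between Ppargc1a and Esrrg and between Esrrg and Ppard. Pparg (1.79), Esrrb (1.58) and Ppara (1.53) could not be ordered beyond their spread, and Ppargc1b was lowest at 0.920 RPKM. Tfam thus moved from 5th of 10 in heart to 3rd in quadriceps. Ppara stood 7th in heart, and its place beside Pparg and Esrrb in quadriceps was not settled. These orders rest on the leading row of each gene and are a description. The place of Rxrg turned on it: its longer row, NM_009107, gave 12.7 ± 0.599 RPKM in heart, a mean below those of Esrra and Ppargc1a, and 18.5 ± 2.53 RPKM in quadriceps, a mean below that of Esrra.

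Shares within each family do not depend on the scaling of a library, so they compare the members directly. Of the summed RPKM of the PGC-1 pair, Ppargc1a made up 81.7, 80.4 and 83.4% in heart 1, 2 and 3 and 92.3, 86.9 and 90.3% in quadriceps 1, 2 and 3. Of the PPARs, Ppara made up 38.2, 37.2 and 37.3% in heart and 23.2, 16.7 and 20.5% in quadriceps. Of the ERRs, Esrra made up 51.3, 51.3 and 53.9% in heart and 67.3, 82.2 and 72.9% in quadriceps. The quadriceps share of Esrra was above every heart value, and that of Ppara was below every heart value.

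The share of Esrrb went from 15.6 ± 0.524% to 5.28 ± 1.0% of the ERR family (SD, n = 3 each), and the share of Esrrg went from 32.2 ± 1.04% to 20.6 ± 6.57%. Rxrg went from 63.0 ± 0.734% to 55.1 ± 2.16% of the RXR family, in which Rxra, the RXR form found in most tissues, was 1.20 higher on the log2 scale in quadriceps with TMM and 0.44 higher with library totals (edgeR adjusted p = 6.18e-05 and 0.00813). For these 6 shares the groups did not overlap, and each gave p = 0.1 in a two-sided exact permutation test, the smallest that 3 against 3 allows, or 0.133 after adjustment over the 8 shares tested. The shares of Ppard (45.1 ± 0.892% and 56.7 ± 10.4%) and Pparg (17.4 ± 1.23% and 23.1 ± 8.18%) overlapped between tissues, with exact permutation p = 0.3 and 0.4, or 0.343 and 0.4 after adjustment. No share can pass 0.05 in this design. Without quadriceps 1 the difference of Pparg went from 5.78 to 1.30 percentage points and that of Ppard from 11.6 to 17.6. With raw counts in place of RPKM neither share overlapped (exact permutation p = 0.1 for both).

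**Figure D3:**
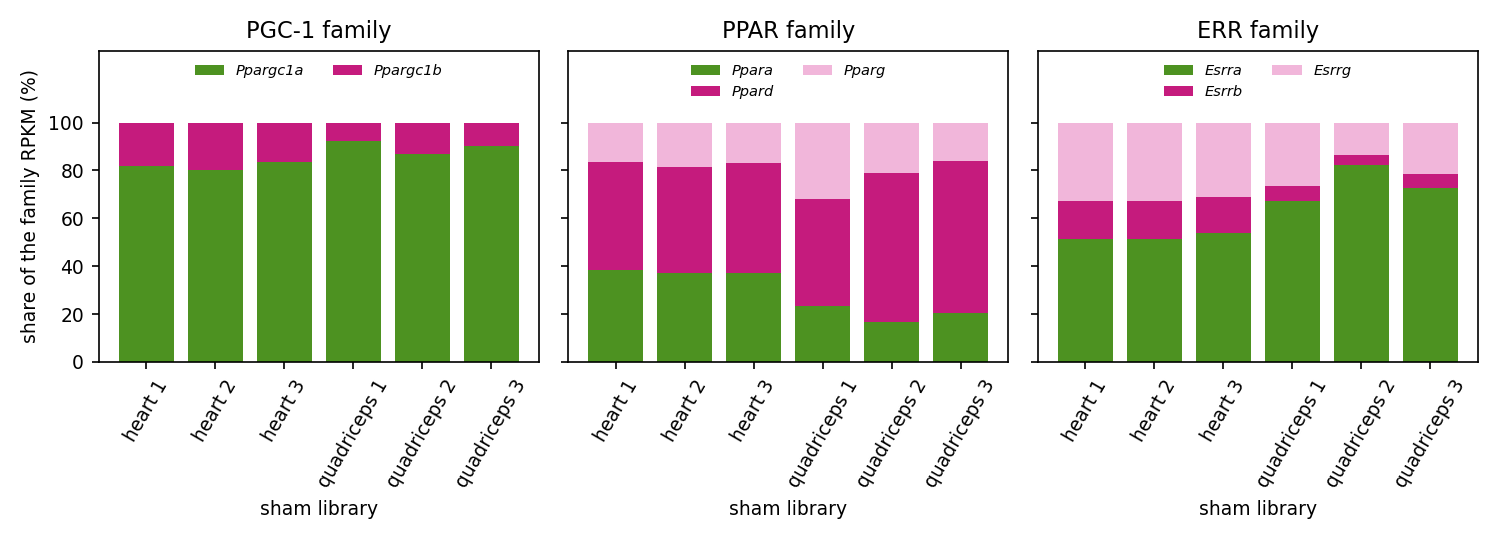
Stacked bars show, for each sham library, the percentage of the summed RPKM of the PGC-1, PPAR and ERR families that each member holds. Esrra takes 51.3 to 53.9% of the ERR family in heart and 67.3 to 82.2% in quadriceps, and Ppara takes 37.2 to 38.2% of the PPAR family in heart and 16.7 to 23.2% in quadriceps.

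Marker genes showed both tissues to be what their labels say. Heart markers (Myh6, Tnnt2, Tnni3, Nppa, Mybpc3) summed to 29043 to 31780 CPM in heart and 7.63 to 9.93 CPM in quadriceps. Fast fibre markers (Myh4, Tnnt3, Tnni2, Mylpf, Actn3) summed to 1.43 to 1.93 and 55366 to 78630 CPM, and slow or oxidative fibre markers (Myh2, Tnni1, Tnnt1) to 12.5 to 15.2 and 1395 to 2185 CPM. Endothelial markers were lower in quadriceps for 6 of 6 genes, at 492 to 528 CPM in heart and 150 to 175 CPM in quadriceps. Macrophage markers (76.2 to 76.7 and 36.8 to 54.9 CPM) were lower for 4 of 6 genes, and fibroblast markers (547 to 612 and 383 to 535 CPM) for 3 of 5. The part of these cell types in the levels of the regulators was not tested.

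Fat cell markers differed between the quadriceps libraries, in an order that Pparg shared with Ppara and Tfam. The sum of 8 adipocyte markers was 235 to 305 CPM in heart and 530, 259 and 198 CPM in quadriceps 1, 2 and 3, and 6 of the 8 were higher in quadriceps by the edgeR test. Fabp4, a fatty acid binding protein that capillary endothelium also makes, carried most of the sum, at 233 to 304 CPM in heart and 396, 202 and 180 CPM in quadriceps, and was not called (edgeR adjusted p = 0.811). Each of the other markers was under 1 CPM in every heart library. Adipoq, the fat cell hormone adiponectin, had 0.546, 0.258 and 0.163 CPM in heart and 43.5, 17.8 and 5.31 CPM in quadriceps. Ucp1, the brown fat uncoupling protein, had 0 counts in every heart library and 65, 1 and 0 counts in quadriceps. Pparg followed the same order over the quadriceps libraries (5.29, 3.89 and 2.20 CPM), while Esrrg did not (45.5, 20.7 and 33.3 CPM). Ppara (13.4, 10.7 and 9.89 CPM) and Tfam (57.1, 49.8 and 48.3 CPM) also followed this order, so it was not particular to Pparg. In heart, where Adipoq was near 0, Pparg stood at 4.26 to 4.89 CPM. The part of fat cells in the quadriceps level of Pparg was not tested.

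**Figure D4:**
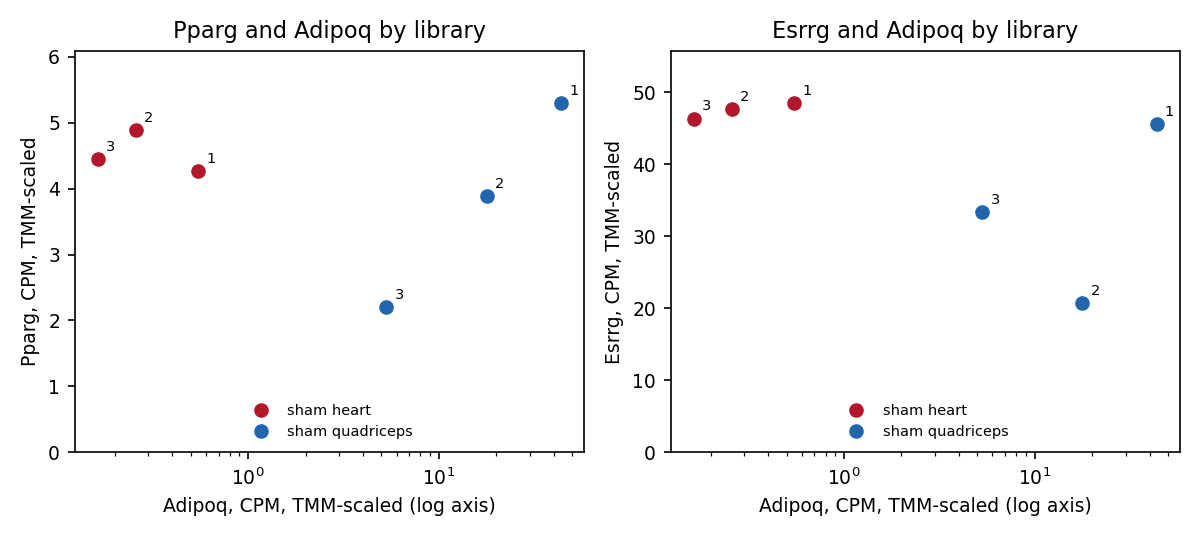
The left panel plots Pparg and the right panel Esrrg (TMM-scaled CPM) against the fat cell marker Adipoq (TMM-scaled CPM, log axis) in each library, numbered by replicate. In quadriceps Pparg is highest in library 1 and lowest in library 3, as Adipoq is, whereas Esrrg is lowest in library 2. Ppara and Tfam, not plotted, share the order of Pparg.

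Genes around the regulators were described in lists, counted by the same test. Among the list genes named below, exons of Prkab2, Mef2d, Ncoa3, Top1mt, Polg, Cox4i1, Mb and Ckmt2 overlap exons of other genes on the opposite strand. Exons of Atf2 overlap those of Gm27421 on the same strand. Reads of these genes may not be separable. Of 10 genes chosen from the signals that act on Ppargc1a, 8 were higher in quadriceps, 0 lower and 2 not called. Their median log2 difference was 0.82 against -0.06 for all transcripts. The list holds Prkaa1, Prkaa2, Prkab2 and Prkag3 of the energy sensor AMPK, Mef2c and Mef2d, the p38 MAP kinase Mapk14, and the CREB-type factors Atf2, Creb1 and Crtc2. Other AMPK subunits and MEF2 factors were not listed, so the count and the median depend on the forms chosen. Over all transcripts 32.2% were higher and 34.4% lower with TMM, and 13.3% and 62.6% with library totals, which is the background for each of the lists. With library totals 5 of the 10 were higher and 4 lower. Prkag3, the AMPK γ3 subunit of fast muscle, rose from 1.72 to 160 CPM (log2 difference 6.54, edgeR adjusted p = 9.25e-08), Mef2c by 3.63 and Prkab2, the AMPK β2 subunit, by 3.29. Ppargc1a itself was lower, and the activity of these signals was not measured. Of 15 partners and coregulators 2 were higher, 3 lower and 10 not called, with a median of -0.07, and with library totals 1 was higher and 13 lower, with a median of -0.82. Rxra (1.20) and Lpin1 (0.95), a phosphatidate phosphatase that also coactivates with PGC-1α, were the higher ones, Lpin1 without passing under library totals (0.18, edgeR adjusted p = 0.289). The lower ones included Med1 (-0.53), the mediator subunit that contacts nuclear receptors, and the coactivator Ncoa3 (-0.50).

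Tfam works with a set of mitochondrial DNA factors, and of 13 others 5 were higher, 4 lower and 4 not called, with a median log2 difference of -0.14, which is near the background of 32.2% higher and 34.4% lower. Top1mt, the mitochondrial topoisomerase, was 1.94 higher, the elongation factor Tefm 0.71 and the initiation factor Tfb2m 0.64. Polg, the catalytic subunit of the mitochondrial DNA polymerase (-0.94), the RNA polymerase Polrmt (-0.94) and the protease Lonp1 (-0.72) were lower. Tfam at 0.68 thus lay among the genes of higher level, and with library totals 1 of the 13 was higher and 8 were lower.

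Of 23 PPAR target genes 22 were tested, of which 14 were lower in quadriceps, 5 higher and 3 not called, with a median log2 difference of -0.64, where 34.4% of all transcripts were lower and 32.2% higher. Fgf21, with 2 counts in quadriceps 3 and 0 in the other libraries, did not pass the filter on low counts. The lower ones included the carnitine palmitoyltransferase Cpt1a (-2.45, SE 0.13) and the thioesterase Acot1 (-2.05, SE 0.59). Acot1 was near the floor, at 0.882, 1.77 and 1.96 CPM in heart and 0.662, 0.334 and 0 CPM in quadriceps. Ucp3, the uncoupling protein of skeletal muscle, went from 12.1 to 126 CPM (log2 difference 3.38, edgeR adjusted p = 7.20e-08). Angptl4 (1.74) and Pdk4 (1.43), which restrain lipoprotein lipase and pyruvate use, were also higher, with a wide spread in quadriceps: 777, 257 and 154 CPM for Pdk4, against 129 to 166 CPM in heart, and 8.79, 2.93 and 1.86 CPM for Angptl4. Both followed the order of Adipoq over the quadriceps libraries, and the part of fat cells in their levels was not tested. Cpt1a and Acot1 above and Fndc5, Mb, Ckmt2, Slc25a4 and Idh3a below also followed it. Ucp3 and Cox4i1 did not. The order was thus not particular to Pdk4 and Angptl4. Neither Pdk4 nor Angptl4 passed with library totals (edgeR adjusted p = 0.254 for Pdk4 and 0.119 for Angptl4). The number of higher PPAR targets fell to 2 without heart 1 or heart 2 and to 3 without heart 3 or quadriceps 1. Of 15 PGC-1 and ERR targets 7 were lower, 3 higher and 5 not called, with a median of -0.32. Fndc5, the precursor of irisin, was -1.76, the cytochrome oxidase subunit Cox4i1 -1.03 and myoglobin (Mb) -0.90, while the mitochondrial creatine kinase Ckmt2 (0.75), the adenine nucleotide carrier Slc25a4 (0.57) and the citric acid cycle subunit Idh3a (0.56) were higher. With library totals 1 PPAR target and 0 PGC-1 and ERR targets were higher, and 17 and 12 were lower, where 62.6% of all transcripts were lower. The 10 regulators had a median of -0.44.

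**Figure D5:**
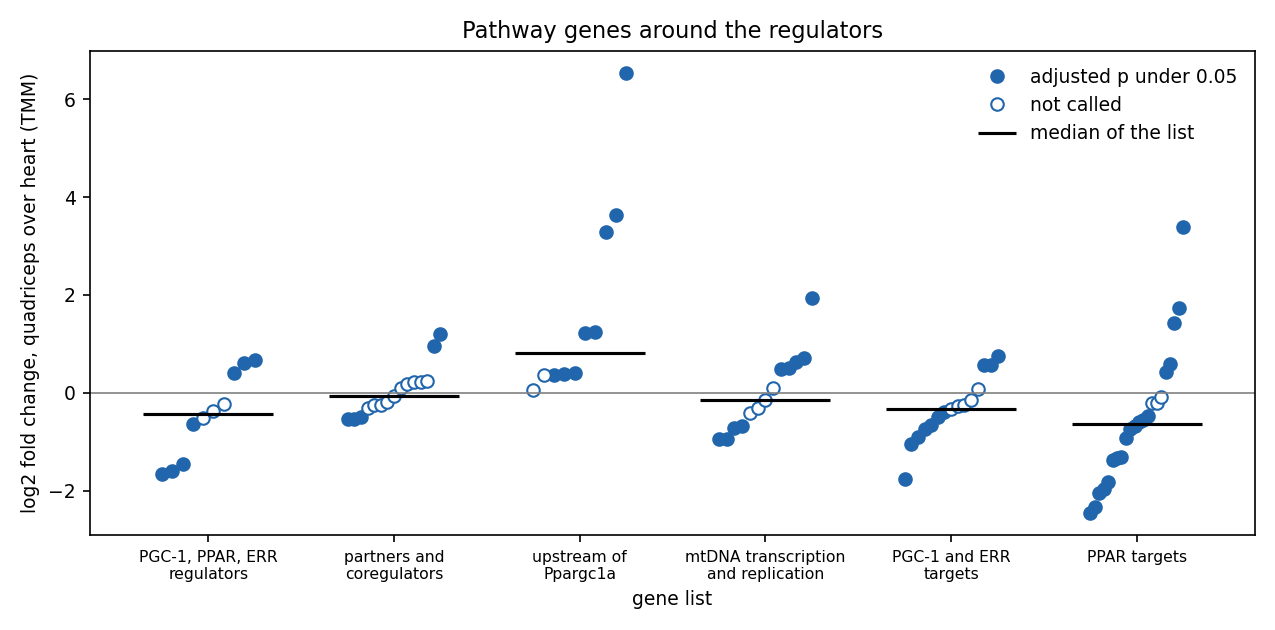
Each point is the TMM-scaled log2 fold change, quadriceps over heart, of a gene in the regulator set or in a list around it, filled where the edgeR adjusted p was under 0.05, with a bar at the list median. The list upstream of Ppargc1a has a median of 0.82 and the PPAR targets one of -0.64, against -0.44 for the 10 regulators.

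The genes whose pattern over the 6 libraries was most like that of Ppargc1a were sought among 13965 genes with a count in every library, by the root mean square difference of log2 TMM-scaled CPM centred on each gene. Hps3, a subunit of an organelle trafficking complex, was nearest at 0.0446, followed by the matrix protein Fbln2 at 0.0539 and the scaffold protein Ahnak at 0.0549. Hps3 went from 7.85 to 5.08 CPM, Fbln2 from 44.0 to 27.8 CPM and Ahnak from 205 to 135 CPM. Exons of Hps3 overlap those of Cp on the opposite strand, so its reads may not be separable. These likenesses rest on 6 libraries of 2 tissues and are a description.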

How the data were processed

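RNA from sham heart and sham quadriceps (3 libraries each) was used. The authors purified mRNA, made ScriptSeq v2 libraries, trimmed single-end reads with Trim Galore, aligned them to mm10 with STAR and deposited read counts per RefSeq transcript made with Rsubread; whether counting used strand is not given in the sources used here. The authors also deposited RPKM, which equal count over length over library total. The log2 fold changes and p-values in the table are the authors' own comparisons and were not used. Counts were tested with edgeR 4.0.16 (R 4.3.3), TMM scaling, the quasi-likelihood test and Benjamini-Hochberg adjustment over the 24280 rows that exceeded 5 counts in 2 or more libraries, no covariates. Of each gene the row with the most counts was used. The alternatives were DESeq2 1.42.0, library totals, other filters, limma 3.58.1 on log2 RPKM, 1 transcript per gene, a replicate block and leaving out each library. The code was tested on simulated data.

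The members and lists were chosen with earlier results of these data known. The genes named are the 10 regulators, of each list the 3 called genes with the largest rise and the 3 with the largest fall, and the 3 genes nearest to Ppargc1a, except that a few genes this rule selects are not reported here. Gene positions are those of GENCODE on GRCm38, and promoters come from RefSeq on GRCm38.p6; 9 of the 10 regulators had their promoter searched, and the promoter of Ppargc1b was not used here. Depth was 23383452 to 38382751 counts per library. Replicate pairs differed by more than sampling noise, with chi-square per degree of freedom of 7.15 to 10.4 in heart and 31.9 to 56.2 in quadriceps.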

Additional observations from a re-analysis of the deposited data

How the results depend on the processing

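Over 10 regulators and 15 alternatives, Ppargc1a, Ppargc1b, Ppara and Esrrb stayed lower in quadriceps and past the threshold. With library totals, transcripts called higher and lower were 3241 and 15203 (1914 and 10173 by at least 2-fold), regulators 0 and 8 (6 lower by at least 2-fold), and list genes 8 and 54. With limma on log2 RPKM plus 0.5, 0.1 and 1, which also starts from library totals, transcripts called higher were 3201, 3218 and 3194 and lower 15319, 15365 and 15322, those higher by at least 2-fold 1257, 1671 and 1052, and those lower by at least 2-fold 8958 with 0.1. Regulators were then 0 higher and 8 lower, with 6, 7 and 5 lower by at least 2-fold, and list genes 8 higher and 56 lower. At least 10 counts in every library left 3299 transcripts lower by at least 2-fold, and 1 transcript per gene left 4744 higher and 5059 lower (2421 and 3083 by at least 2-fold), as fewer rows were tested. Against the TMM result, Esrra reversed to -0.14 with library totals (-0.14, -0.14 and -0.13 with limma on RPKM plus 0.5, 0.1 and 1), Rxrg to -0.34 (-0.33, -0.34 and -0.33) and Tfam to -0.068 (-0.076, -0.080 and -0.073). Pparg ranged from -0.51 to 0.044 when single libraries were left out, and reversed without quadriceps 3. The shift in the median of all transcripts accompanies the reversals under totals, and the cause of the others was not tested.

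Leaving out each library in turn gave 6987 to 8146 transcripts higher and 7409 to 8357 lower, 3 regulators higher and 4 to 5 lower, and 18 to 25 list genes higher and 27 to 31 lower. Ppard passed without quadriceps 2 and Esrrg without quadriceps 1. With no filter beyond 1 count 6 regulators were lower, Ppard (edgeR adjusted p = 0.0355) and Esrrg (edgeR adjusted p = 0.0433) among them, and with at least 10 counts in every library 5 were, Ppard (edgeR adjusted p = 0.0253) among them. Partners called higher rose from 2 to 5 without quadriceps 1, and those lower from 3 to 5 without quadriceps 2. DESeq2 also called Esrrg lower (-0.50, adjusted p = 0.0455).

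Labels number both groups 1 to 3 but name no mouse, so the numbers were not taken to pair them. The deviations of same-numbered libraries correlated at 0.0234, -0.0969 and -0.00928. Such values cannot show whether 2 tissues came from the same mouse, since tissues of a mouse need not deviate together. With the replicate block 7541 transcripts were higher and 8175 lower, and 3 regulators were higher and 6 lower, the block adding Ppard (-0.39, edgeR adjusted p = 0.0443) and Esrrg (-0.58, edgeR adjusted p = 0.0179). With 3 libraries a group, differences near those of Ppard and Esrrg were not settled.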

Other observations

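The other regulators had near neighbours of their own among the 13965 genes. Esrra lay closest to Snrnp70, a splicing protein, at a root mean square difference of 0.0146. Ppara lay closest to Qsox2 (0.0391) and Tfam to Tmem41b (0.0440). Exons of Qsox2 overlap those of Gm27196 on the opposite strand, so its reads may not be separable. Pparg had the least close neighbour of the 10, Dlg4, at 0.0965. These genes were chosen after their values were seen.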
